A study of Macaca mulatta with 22 samples.

Results

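Genes of the serine-threonine kinase families were followed through lists of RNA stretches enriched by an antibody to N6-methyladenosine (m6A) in the prefrontal cortex of infant rhesus macaques. A gene was a member if it had a peak in at least 1 animal and a symbol that starts with MAPK, MAP2K, MAP3K, MAP4K, CDK, DYRK, STK, WNK, PRKA, PRKC, CAMK, AKT or CSNK, or with MARK and a digit; CAMK2A and CAMK2B were left out. This rule reads names and no measured value beyond the presence of a peak. It gave 50 of the 3671 genes with a peak and 157 of the 10069 peaks, 97 of them in animals given sevoflurane and 60 in controls. The 50 genes comprise 37 named as kinases, 12 partners (regulatory subunits, activators, inhibitors, scaffolds and binding proteins) and PRKCSH. The last is not a kinase and encodes the beta subunit of the endoplasmic reticulum enzyme glucosidase II.

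The sevoflurane group held 5 macaques (the males D and S1 with the females F, S2, S3) that inhaled about 2.5 to 3% of this general anaesthetic for 4 h around postnatal day 7 and again at days 21 and 35, and the control group held 6 (the males A, B with 4 females, named C, C1, C2, C3). All 11 animals are labelled postnatal day 35, so the sampling day carries the same number as the last exposure. The labels do not say what the controls inhaled or how they were handled. Each animal had 1 m6A immunoprecipitation library with a peak list and 1 input library, which was not analysed here, so the level of each RNA is unknown. In bulk tissue, fewer cells of a type and less RNA per cell cannot be told apart, and neither can be told from a change in methylation when the RNA level is unknown.

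Protein kinases pass phosphate to serine or threonine residues of other proteins and work in chains and complexes: mitogen-activated protein kinases (MAPKs) are switched on by MAP2Ks, which are switched on by MAP3Ks, and scaffold proteins hold such a chain together. Cyclin-dependent kinases need a cyclin or another activator, and protein kinase A (PKA) is silent until cAMP frees its catalytic from its regulatory subunits. In cortical neurons these routes carry signals from receptors to synapses, the cytoskeleton and transcription. m6A is the commonest internal modification of messenger RNA, is known to gather near stop codons and in long exons, and bears on splicing, decay and translation. A peak is a stretch where the antibody enriched RNA fragments, and its fold enrichment is the authors' own value for that peak, used here to describe and rank peaks within 1 animal's list.

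More kinase family genes had a peak in the sevoflurane animals, about in the proportion in which their lists held more genes of every kind. Kinase family genes with a peak numbered 19 in D, 19 in F, 10 in S1, 21 in S2 and 12 in S3 after sevoflurane, against 9 in A, 9 in B, 7 in C, 4 in C1, 13 in C2 and 13 in C3 among controls. The means were 16.2 ± 4.87 (SD, n = 5) and 9.17 ± 3.49 (SD, n = 6), a ratio of 1.77, and the groups overlapped between 10 and 13 genes. Genes of all kinds numbered 1043 ± 222 per sevoflurane animal and 601 ± 235 per control animal, a ratio of 1.74. As a share of the animal's genes with a peak, the kinase families made up 1.55 ± 0.345% after sevoflurane and 1.54 ± 0.378% in controls. On the log2 scale the difference in the number of all genes was 0.84, with an exact permutation p of 0.0152 (two-sided, 462 splits). It was 0.70 in males (exact p = 0.333, 6 splits) and 0.96 in females (exact p = 0.0857, 35 splits). Among animals named with a single letter it was 1.02 (exact p = 0.10, 10 splits) and among numbered animals 0.67 (exact p = 0.20, 20 splits). These smaller sets cannot pass 0.05 by naming style or in males, whose values are at or near the smallest p they allow, and what the 2 naming styles stand for is not stated. Kinase family genes averaged 14.5 and 9 in sevoflurane and control males, 17.3 and 9.25 in females, and their share of genes 1.64 and 1.71% in males, 1.5 and 1.45% in females. By naming style they averaged 19 and 8.33 in the single-letter animals and 14.3 and 10 in the numbered ones, and their share of genes was 1.88 and 1.66% in single-letter animals, 1.33 and 1.42% in numbered animals (sevoflurane and control each time). When every list was reduced to the 452 most significant peaks, the length of the shortest, 26 of the 50 genes were left, and the means were 6.8 ± 3.27 after sevoflurane (SD, n = 5) and 6.33 ± 2.07 in controls (SD, n = 6).

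**Figure D1:**
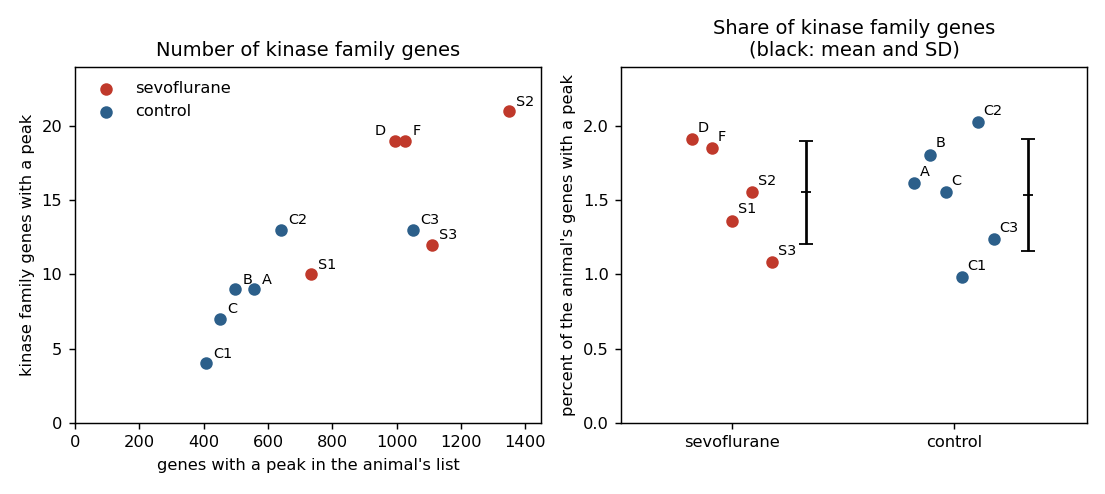
Kinase family genes with a peak in each animal, as a number against all genes with a peak in that animal's list (left) and as a percentage of them (right, with mean and SD; sevoflurane n = 5, control n = 6). The number climbs with the length of the list, from 4 in C1 to 21 in S2, while the shares of both groups cover the same range around 1.55 and 1.54%.

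No kinase family gene passed the test of presence. Over all genes, presence in 2 to 9 of the 11 animals was tested with a two-sided Fisher's exact test, and a gene was called at an unadjusted p under 0.05: 1.82% of the 1486 tested genes (27) were called with more sevoflurane animals and 0% with more control animals, and no gene passed after Benjamini-Hochberg adjustment (lowest adjusted p = 0.606). Of the 26 kinase family genes tested, 0 were called in either direction, and the lowest Fisher's exact p was 0.0606. With 5 against 6 animals, a gene or region in 2, 3, 8 or 9 animals cannot fall below 0.0606 in this test. Among the tested members, only CDKN2D, MAP2K7, MARK4, MAPK3 and MAPKBP1 were in other numbers of animals and could be called. MAPK3 and MAPKBP1, in 4 animals, could be called only with more sevoflurane animals. MAP2K7, in 7 animals, could be called only with more control animals. For the rest of the tested members the outcome was fixed in advance. The 1.82% of all tested genes includes genes under the same limit. A larger share of sevoflurane than of control animals had the peak for 21 of the 26 (80.8%), beside 83.2% of all tested genes, and the median difference was 23.3 percentage points in both sets. Joined by overlap, the peaks formed 76 regions in kinase family genes, of which 23 were tested and 0 called (lowest Fisher's exact p = 0.182), beside 1.5% of the 1265 tested regions called with more sevoflurane animals and 0% with more controls. Most of the 23 were in 2, 3, 8 or 9 animals and could not be called.

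Most of these genes were seen in few animals. Of the 50, 23 (46%) had a peak in a single animal, 16 of them in a sevoflurane and 7 in a control animal, beside 55.9% of all genes. Peaks were found in both groups for 20 genes (40%), beside 32.2% of all genes, in the sevoflurane group alone for 22 (44%, beside 44.9%) and in the control group alone for 8 (16%, beside 22.8%). At least 8 animals had a peak, not always in the same region, in 5 genes (10%, beside 6.59%): CDK11B, CDK19, CSNK1D, MAP3K10 and PRKAR1A. By name, 6 of 39 CDK symbols of the macaque gene table had a peak, 8 of 22 for MAPK, 4 of 19 for MAP3K, 3 of 6 for MAP2K, 0 of 5 for MAP4K, 6 of 24 for STK, 6 of 14 for PRKA, 5 of 11 for CSNK, 3 of 4 for MARK, 2 of 4 for WNK, 2 of 5 each for AKT and DYRK, 2 of 12 for CAMK and 1 of 10 for PRKC.

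**Figure D2:**
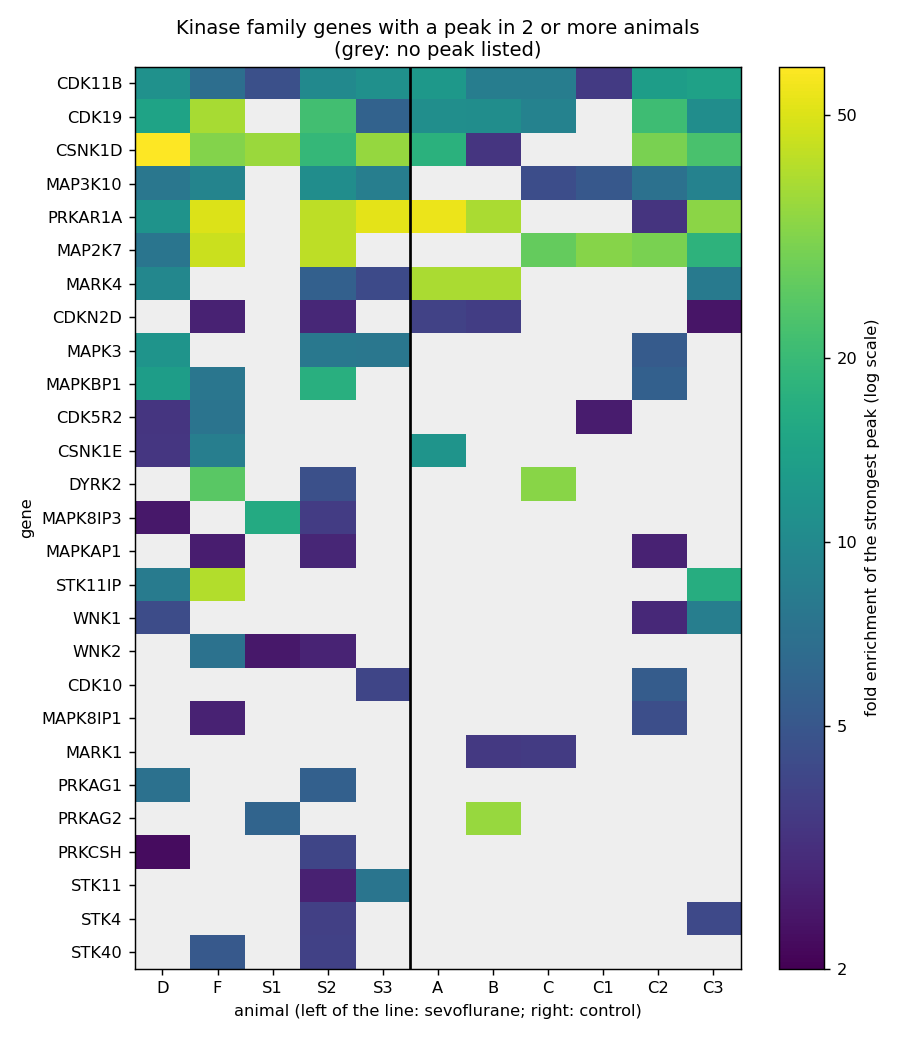
Fold enrichment (colour, log scale) of the strongest peak per animal for the 27 kinase family genes with a peak in 2 or more animals; sevoflurane animals stand left of the line, controls right, and grey means that no peak is listed. CDK11B alone is filled in all 11 columns, and S1 and C1 have the most grey in their groups.

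Among the cyclin-dependent kinases and their partners, which work in the cell cycle, in transcription and, through CDK5, in neurons, 6 genes had a peak and their number per animal was alike: on average 2.8 after sevoflurane and 2.83 in controls. CDK11B, a kinase that pairs with L-type cyclins and acts in transcription and splicing, was the only kinase family gene with a peak in all 11 animals, as 81 of all genes had. In the region that all animals shared, its fold enrichment was 11.2 in D, 6.81 in F, 4.35 in S1, 7.55 in S2 and 11 in S3, against a lowest of 3.55 (C1), a median of 10.3 and a highest of 14.1 (C3) over the 6 controls. Both groups spread over the same range, and the lowest value of each came from the animals S1 and C1. S1 and S2 had a stronger CDK11B peak in another region, with 4.57 and 10.1. The strongest CDK11B peak of each animal stood at a median percentile of 64.5 of its list by fold enrichment, with a range of 22.1 to 73.6.

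The 22 CDK11B peaks fell in 4 regions of the minus strand of chromosome 1 (rheMac8), inside an annotated span of 25854 bp. The shared region lay at chr1:697221-698107, at 74.6% of the way from the start to the end of the gene, in 5 of 5 sevoflurane and 6 of 6 control animals. Nearer the start, chr1:698514-702816 was listed in D, F, S2 and S3 and in controls A and C3 (4 of 5 against 2 of 6, Fisher's exact p = 0.242), and chr1:706362-711472 in F and S2 and in C2 and C3. S1 alone had a further region, chr1:694424-696554. The animals with 3 regions were F, S2 and C3, those with 1 region B, C and C1, whose lists were the 3 shortest. The human genome has a near-identical neighbouring copy, CDK11A, and how reads from such a copy were assigned here was not tested.

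**Figure D3:**
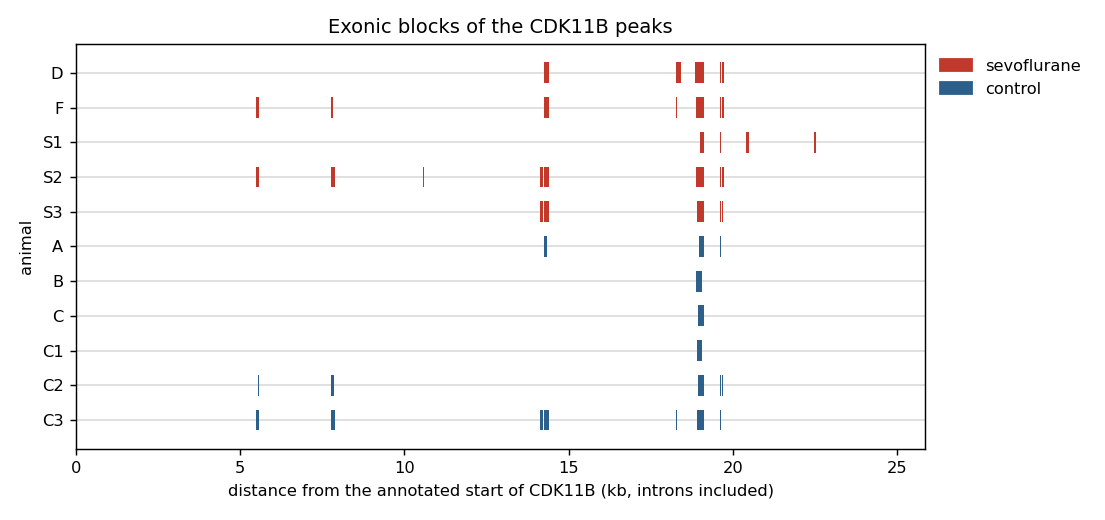
Exonic blocks of the CDK11B peaks in each animal (rows, sevoflurane above control) against distance from the annotated start in kb, introns included. All 11 animals have blocks near 19 kb, and the blocks nearer the start are listed in 4 or fewer animals of a group.

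CDK19, a kinase of the Mediator complex that links transcription factors to RNA polymerase II, had a peak in 4 of 5 sevoflurane and 5 of 6 control animals, all in 1 region at the annotated start (chr4:157160331-157160720, plus strand). The fold enrichment was 14.3 in D, 38.6 in F, 21.3 in S2 and 5.82 in S3, against 10.7 in A, 10.6 in B, 8.98 in C, 20.8 in C2 and 10.6 in C3. The sevoflurane values enclose the control values on both sides, and the animals without the peak were S1 and C1. CDKN2D, which encodes the p19 inhibitor of CDK4 and CDK6, had weak peaks at chr19:10595831-10596127 (minus strand) in F (2.77) and S2 (2.93) and in controls A (3.89), B (3.69) and C3 (2.44), with a Fisher's exact p of 1. CDK5R2, the p39 activator of CDK5 in neurons, had 1 region that begins 60 bp from the annotated start (chr12:101084266-101084534, plus strand), with enrichments of 3.40 in D and 7.38 in F, against 2.60 in C1. CDK10 was listed in S3 and C2, and CDK5RAP2, a centrosomal protein, in A alone.

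The MAPK cascade gave 14 genes, with a mean of 4.2 per sevoflurane animal and 2.5 per control animal, and none of the 6 tested was called. Of these 6, only MAP2K7, MAPK3 and MAPKBP1 were in numbers of animals at which the test could call a gene. MAP2K7 could be called only with more control animals, MAPK3 and MAPKBP1 only with more sevoflurane animals. At the top of the chain, MAP3K10, a mixed-lineage kinase upstream of the JNK branch, had a peak in 4 of 5 sevoflurane and 4 of 6 control animals in the region chr19:35949431-35953411 (plus strand), at 89.7% of its span. The fold enrichment was 7.70 in D, 9.22 in F, 10.6 in S2 and 8.54 in S3, against 4.49 in C, 5.10 in C1, 7.12 in C2 and 9.05 in C3. The groups overlap between 7.70 and 9.05. MAP3K9, of the same subfamily, was listed once at the start of the gene, in A, with an enrichment of 35.0; MAP3K2 was listed in B, and MAP3K5, known as ASK1, in S2.

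At the middle of the chain, MAP2K7, which phosphorylates JNKs, had a peak in 3 of 5 sevoflurane and 4 of 6 control animals. Its main region, chr19:8095557-8095826 (plus strand), held F and S2 and controls C, C1, C2 and C3 (2 of 5 against 4 of 6, Fisher's exact p = 0.567). The enrichments there were 45.4 in F and 42.6 in S2, against 26.9 in C, 32.4 in C1, 30.3 in C2 and 18.1 in C3. Both sevoflurane values lie above all 4 control values, and the third sevoflurane animal, D, had 7.48 in a separate peak 3′ of this region. By percentile within each animal's list, the 6 peaks of the main region stood closer together. The percentiles were 95.8 in F and 95.4 in S2, against 81.6 in C, 94.6 in C1, 91.7 in C2 and 82.9 in C3. MAP2K1, which activates ERKs, was listed in S3 (17.5, at the start of the gene), and MAP2K4, the other JNK activator, in C (3.74).

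At the end of the chain, MAPK3 (ERK1) had a peak at chr20:27472814-27472994 (minus strand), 691 bp from the annotated start, in 3 of 5 after sevoflurane and 1 of 6 in the control group, with a Fisher's exact p of 0.242. The fold enrichment was 11.7 in D, 7.81 in S2 and 7.69 in S3, against 5.30 in C2. MAPK8 (JNK1) was listed in F and MAPK14 (p38 alpha) in C3, the latter with an enrichment of 27.2 near the end of the gene. MAPK4, grouped here by name only, was listed in S1.

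The scaffolds of the JNK branch differed in how their peaks lay. MAPKBP1, a JNK-binding protein, had a region about 1018 bp from its annotated end (chr7:18229128-18229337, plus strand) in all 4 animals that listed the gene, with enrichments of 13.2 in D, 7.56 in F and 17.0 in S2, against 5.68 in C2 (3 of 5 against 1 of 6, Fisher's exact p = 0.242). S2 had a further, weaker MAPKBP1 peak (2.71) near the start of the gene. MAPK8IP3 (JIP3), a scaffold that also serves motor proteins in axons, had 5 peaks in 5 separate regions, in D (strongest 2.48), S1 (15.9) and S2 (3.64) and in no control (3 of 5 against 0 of 6, Fisher's exact p = 0.0606, adjusted p = 0.606). A gene in 3 animals cannot give a smaller Fisher's exact p. No 2 animals shared a MAPK8IP3 region, although 4 of the 5 peaks lay in the last 20% of the gene. By the annotation column in place of the gene of the peak call, MAPK8IP3 counted 4 of 5 against 0 of 6 (Fisher's exact p = 0.0152): the added animal, F, has a minus-strand peak that was called in MRPS34, on the strand opposite to MAPK8IP3. MAPK8IP1 (JIP1) was listed in F and C2.

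PKA and AMP-activated kinase (AMPK) subunits gave 6 genes, on average 1.8 per sevoflurane animal and 1 per control animal. None of the 3 tested was called, but they were in 2 or 8 animals, where Fisher's exact test cannot reach 0.05. PRKAR1A, the type I alpha regulatory subunit that holds PKA silent, had a peak in 4 of 5 sevoflurane and 4 of 6 control animals. Its region at the annotated start (chr16:61952529-61953611, plus strand) reached 11.5 in D, 49.9 in F, 42.6 in S2 and 52.4 in S3, against 54.4 in A, 38.9 in B and 33.2 in C3. The values of both groups overlap, with D far below the others. A second region, chr16:61966531-61970552, was listed only in controls C2 (3.32) and C3 (2.18), so C2 counts among the PRKAR1A animals without the start region. Fold enrichment and log10 p rank these peaks in opposite order: the log10 p was −21.4 and −20.3 in the second region and between −10.6 and −7.11 at the start. PRKAR2B, PRKACA and PRKACB, another regulatory and 2 catalytic subunits, were listed in D, S1 and C3. Of the AMPK gamma subunits, PRKAG1 was listed in D (7.15) and S2 (5.68), in separate regions, and PRKAG2 in S1 (5.98) and B (35.4).

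Casein kinases gave 5 genes, on average 2 per sevoflurane animal and 0.833 per control animal. CSNK1D, casein kinase 1 delta, which phosphorylates PER proteins of the circadian clock, had the highest enrichment of any kinase family peak. Its region at the annotated start, chr16:76158962-76159202 (minus strand), was listed in 5 of 5 sevoflurane and 3 of 6 control animals (Fisher's exact p = 0.182). The enrichment was 59.4 in D, 31.8 in F, 35.9 in S1, 19.2 in S2 and 34.9 in S3, against 17.5 in A, 30.3 in C2 and 22.6 in C3. The groups overlap, and 4 of the 5 sevoflurane values lie above the highest control. By percentile within each animal's list, only D (97.5) and S3 (92.7) stood above the highest control, C2 (91.7), while F, S1 and S2 stood below it. Near the other end of the gene, between 76130358 and 76131287, F, S1, S3 and B had minus-strand peaks that the annotation column assigns to SLC16A3, a gene on the plus strand; B counts for CSNK1D through this peak alone (3.37), and with it the gene stood at 5 of 5 against 4 of 6 (Fisher's exact p = 0.455). CSNK1E, the epsilon form, had 1 region that reaches its annotated start (chr10:80322717-80336392, minus strand) in D (3.42) and F (8.62), against A (11.7). The deposited annotation labels these peaks 3′ UTR, and the midpoint of the D peak lay at 23.6% of the span. CSNK1G2, CSNK1G3 and CSNK2A2 were listed in S2, D and S3, with no control.

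**Figure D4:**
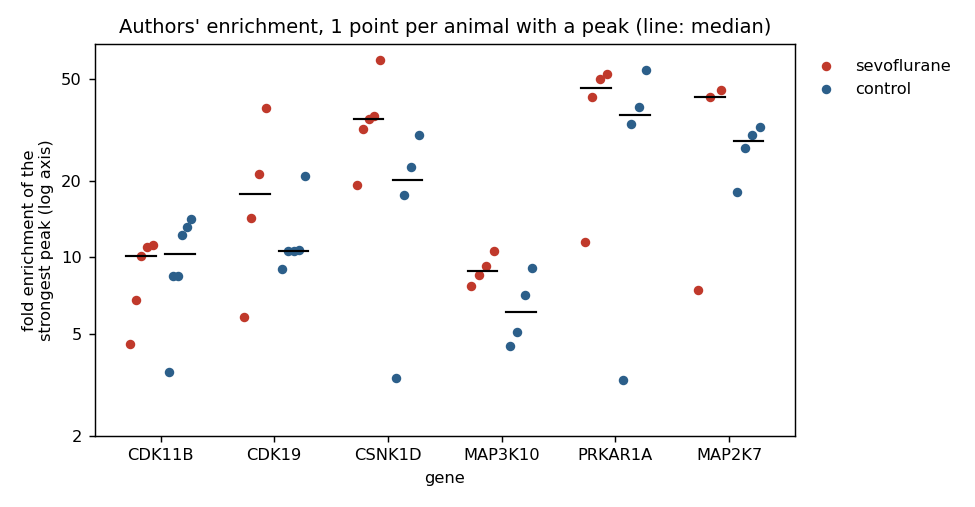
Fold enrichment of the strongest peak (log axis) of the 6 kinase family genes with a peak in most animals, 1 point per animal that has the peak, with the group median as a line; sevoflurane stands left of control. Points from a peak outside the gene's main region are C2 in PRKAR1A (3.32), B in CSNK1D (3.37), D in MAP2K7 (7.48) and S1 and S2 in CDK11B (4.57 and 10.1). The groups overlap in every gene as plotted, in MAP2K7 only through D.

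The microtubule affinity regulating kinases, which phosphorylate tau and related proteins, had 3 genes with 0.8 per sevoflurane and 0.833 per control animal. MARK4 had a peak in 3 of 5 sevoflurane and 3 of 6 control animals, at 98.6% of its span in chr19:40625752-40625931 (plus strand) for 5 of them; the C3 peak lay just beyond it. The strongest peak had 9.68 in D, 5.68 in S2 and 4.30 in S3, against 38.9 in A, 38.9 in B and 8.05 in C3. A and B, the 2 control males, stand above all others. In B the MARK4 peak and the PRKAR1A peak carry the same log10 p (−7.11) and the same enrichment (38.9); 30.6% of the kinase family peaks share both values with a peak of another gene in the same list, beside 33.3% of all peaks, so equal values here do not mean a shared peak. MARK1 was listed in B and C (0 of 5 against 2 of 6, Fisher's exact p = 0.455) and MARK2 in S1.

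The STK and WNK families, counted with the binding protein STK11IP, together had 8 genes, on average 2.6 per sevoflurane animal and 0.667 per control animal. None of the 6 tested was called. Each was in 2 or 3 animals, where Fisher's exact p cannot fall below 0.0606, so this was fixed in advance. The ratio of these averages was not tested. WNK2, of a family that controls chloride cotransporters, was listed in F (7.19), S1 (2.50) and S2 (2.81) and in no control (Fisher's exact p = 0.0606, adjusted p = 0.606); its 3 peaks lie in 3 separate regions spread over the gene. The 3 sevoflurane animals thus share the gene and not a site. Without animal S3, WNK2 and MAPK8IP3 each stood at a difference of 75 percentage points with a Fisher's exact p of 0.0333. The same held for WNK2 without D and MAPK8IP3 without F. Each animal left out here is a sevoflurane animal without a peak in that gene. With 1 sevoflurane animal fewer, the smallest Fisher's exact p for a gene in 3 animals is 0.0333 in place of 0.0606. Over all omissions of 1 animal, Fisher's exact p ran from 0.0333 to 0.167 for each gene. STK11 (LKB1), the upstream kinase of AMPK, had 1 region about 810 bp from its start in S2 (2.72) and S3 (7.49), and STK40 1 region at its start in F (5.19) and S2 (3.87), both with no control (2 of 5 against 0 of 6, Fisher's exact p = 0.182 each). PRKAG1 and PRKCSH had the same count and p. STK11IP, which binds LKB1, had 1 region at chr12:101744852-101745031 (plus strand), with enrichments of 8.25 in D and 40.8 in F, against 16.6 in C3. WNK1 was listed in D, against C2 and C3, STK4 in S2, against C3, and STK24 and STK25 in F alone.

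Of the dual-specificity tyrosine-regulated kinases, DYRK2 had enrichments of 25.0 in F and 4.61 in S2, against 32.9 in C, with F and C at its start (chr11:66393903-66394083, plus strand) and S2 further along, and DYRK1A was listed in S3. AKT1 and AKT2, the central kinases of insulin and growth factor signalling, were listed once each, in D and S1. MAPKAP1 (SIN1), a subunit of the mTOR complex that phosphorylates AKT, had weak peaks at its start in F (2.63) and S2 (2.87), against C2 (2.78). CAMK2D was listed in S1, and CAMKK2, which activates AMPK and CaM kinases, in C2.

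The kinase family peaks lay somewhat more often at gene starts than those of other genes; this difference was not tested, since peaks of 1 gene in several animals repeat each other. Which modified base the antibody met at these starts was not tested. Position was read between the annotated ends listed with each peak, and a midpoint beyond an end was placed at that end. These ends can differ between peaks of 1 gene: the PRKAG1 peaks of D and S2 stood at 4.62 and 81.8% of different spans. The first 20% of the span held the midpoints of 34.0% of the 153 placed peaks, and the last 20% held 29.4%. For the peaks of other genes these shares were 24.9% and 37.5%. Counted once per gene by the median of its peaks, 32% of the 50 genes lay in the first and 32% in the last 20%, beside 22.8% and 33.8% of 3460 other genes. The share of peaks in the last 20% was 29.9 ± 15.1% per sevoflurane animal and 30.7 ± 7.34% per control animal (SD, n = 5 and 6), a difference smaller than the spread. By sex it was 43.2 ± 16.1% after sevoflurane and 28.8 ± 12.4% in controls among males (n = 2 each), and 21.1 ± 6.07% and 31.7 ± 5.90% among females (n = 3 and 4). The differences thus had opposite signs in males and females, which was not tested. Of the 18 genes found in 3 or more animals, 10 had a region shared by every animal that had the gene. Only WNK2 and MAPK8IP3 among these 18 had no region in 2 animals.

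**Figure D5:**
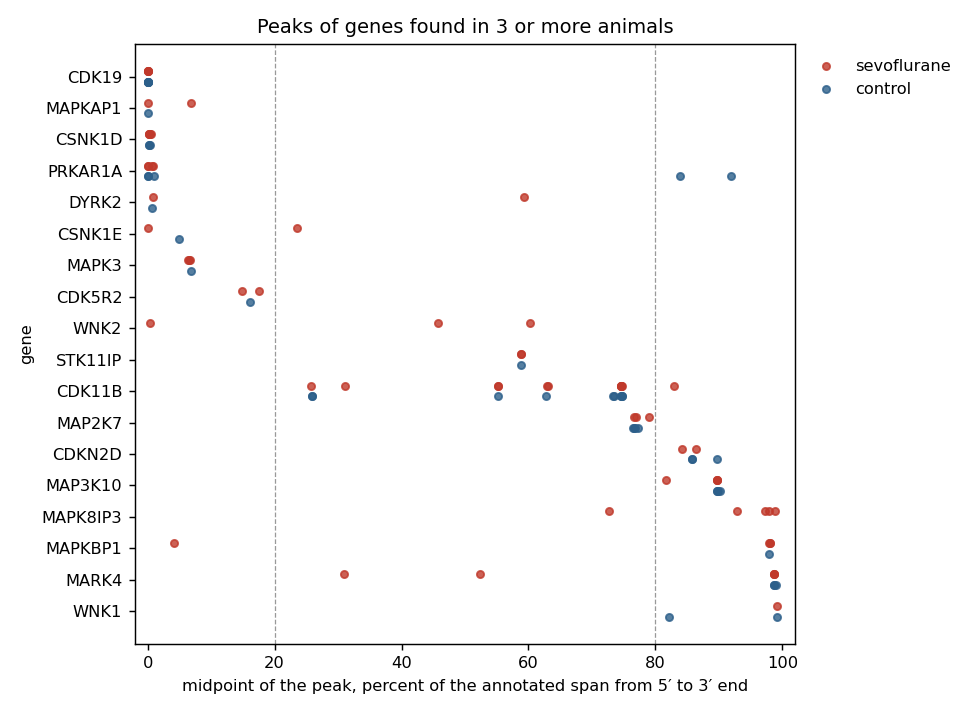
Midpoint of each peak as a percentage of the annotated span from the 5′ to the 3′ end, for the 18 kinase family genes found in 3 or more animals; dashed lines mark 20 and 80%, and sevoflurane points stand above control points in a row. All CDK19 points and all placed CSNK1D points sit at the start in both groups and all MAP3K10 points past 80%, while PRKAR1A has 2 control points near the end, MARK4 has single points of S2 and D before 80%, and the WNK2 points lie apart from each other.

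In shape and strength the kinase family peaks were close to the rest. Their exonic length had a median of 150 bp (range 90 to 389), as for other genes, and 42.7% spanned more than 1 exonic block, beside 35.8%. The fold enrichment ran from 2.18 to 59.4 with a median of 6.81, beside 6.03 for other genes. Peaks within 1 block had a median of 8.15 and those over several blocks 4.49, beside 7.48 and 4.54. A p-value of at most 1e-05 was listed for 70.1% of them, beside 65.5%.

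Other genes of the same routes, taken from lists of pathway genes, could hardly be compared between the groups, since few were present in enough animals to be tested: 2 on the route from RAS to the MAPKs, 4 on the cAMP and PKA route, 0 cyclins, 3 on the PI3K, AKT and mTOR route and 11 phosphatases. None of these was called in either direction, beside the 1.82% and 0% of all tested genes. The 2 on the route from RAS were in 2 animals each, where Fisher's exact test cannot reach 0.05. The same held for some genes of the other lists. On the route from RAS to the MAPKs, 15 of 34 genes had a peak (3.4 per sevoflurane and 1.5 per control animal). On the cAMP and PKA route, 9 of 21 had a peak (1.6 and 1.5 per animal). AKAP9, an anchor that holds PKA at centrosome and Golgi, was listed in 0 of 5 sevoflurane and 4 of 6 control animals (Fisher's exact p = 0.0606). For a gene in 4 animals, this is the smallest p that more control animals can give, so AKAP9 could not be called in that direction. Only 2 of 15 cyclins had a peak. The PI3K, AKT and mTOR route had 10 of 24 (2 and 0.833 per animal). The phosphatases that remove the same phosphates had 17 of 29, on average 6.4 per sevoflurane and 5.5 per control animal: PPP2CB, a catalytic subunit of PP2A, was listed in 4 of 5 and 6 of 6, PPM1B in 4 of 5 and 5 of 6, and PPP1CB, a catalytic subunit of PP1, in 4 of 5 and 1 of 6 (Fisher's exact p = 0.0801). Of 32 markers of cortical cell types and blood, 7 had a peak, 2 of 8 for neurons, 2 of 6 each for astrocytes and oligodendrocytes, 1 of 6 for microglia and 0 for endothelium and blood. Peak lists show stretches enriched by the antibody and not RNA levels, so the makeup of the tissue samples was not tested.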

How the data were processed

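m6A peak lists of 11 immunoprecipitated libraries, 1 per animal, were analysed; the 11 input libraries were not. The submitters' processing notes list HISAT2 2.1.0, Trim Galore 0.5.0 with cutadapt, and StringTie, on rheMac8; which peak caller and background were used is not given in the sources used here. Per the file headers, each row holds a p-value, log10 p and log10 FDR scores, and a fold enrichment (a ratio), all deposited by the authors. The largest p-value was 0.001 and the smallest fold enrichment 2.06. No read counts are given, so depth is unknown and precision rests on the number of animals.

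Printed starts are 1-based: 190 deposited starts lay 1 bp below an annotated gene start and 5 on it. Genes were those of the peak call; 3235 of 3671 identifiers were named by the supplied table and 250 by the files (MAP2K7 among them), and 186 stayed unnamed. CDK11B carries a locus name in the files' symbol column. Regions join peaks whose exonic blocks overlap by at least 1 bp on 1 strand. Position runs between the annotated ends listed with each peak, on the gene's strand, and these ends can differ between peaks of 1 gene. Python 3.11.15, pandas 2.3.3 and scipy 1.17.1 were used, and the tests were checked on simulated data.

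Groups came from the treatment labels, and each label names a separate animal. Replicate numbers are in accession order and pair nothing. Genes named with full values were those in at least 8 animals, up to 10 per direction by difference in share of animals, CDK11B and the most widespread member of each family; others are given by animals or region, and some enrichments beyond these were added after their values were seen. Pathway genes were named where they had a peak in at least 8 animals (1 such gene is not reported here), AKAP9 and PPP1CB for their p after their values were seen. The members and lists were chosen with earlier results of these data known. Alternatives were stricter peaks, lists of equal length, leaving out each animal, strata by sex or naming style, the annotation column's gene, no filter and a reciprocal overlap of 50%. No genome of the files' build was used, so no sequence or motif is given.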

Additional observations from a re-analysis of the deposited data

Results flagged for a closer look

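In 2 of the 19 groups of 4 to 10 animals examined, 1 animal lay apart from the others of its group by Dixon's criterion, which flags about 1 in 20 groups by chance. Control C3 had 1050 genes with a peak, while the next control had 642 and the lowest 407. It also had 13 kinase family genes, as many as C2. The strongest CDK19 peak had a fold enrichment of 20.8 in control C2, while the next control had 10.7 and the lowest 8.98.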

How the results depend on the processing

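The 27 genes called with more sevoflurane animals became 10 with peaks of p at most 1e-05 and 4 with lists of equal length, and the 19 regions became 11 and 4. The difference in kinase family genes per animal, 7.03, was 0.467 with lists of equal length. Leaving out 1 animal at a time gave 31 to 85 genes (most without S1, and over 1.5 times the main count without D, F, S1, S2, S3 or C3) and 22 to 68 regions called with more sevoflurane animals, 0 to 1 genes called with more control animals, and 0 to 2 kinase family genes called with more sevoflurane animals. Without 1 sevoflurane animal, 3 sevoflurane animals against 0 controls give a Fisher's exact p of 0.0333, but 0.0606 with all animals. Calls thus become possible that the main test did not allow, as for WNK2 and MAPK8IP3. By the annotation column, 1 kinase family gene (MAPK8IP3) was called. The difference in log2 genes per animal ran from 0.75 to 1.02 without 1 animal (exact permutation p 0.00794 to 0.0381). It was 0.67 over the numbered animals when those with the same number were paired (exact p = 0.25, the smallest that 3 pairs can give). The labels do not state such a pairing. The difference in the kinase share, 0.0148 percentage points, ran from −0.0960 to 0.133 without 1 animal and was −0.0273 with stricter peaks and 0.155 with lists of equal length. The sign of the difference in share of animals turned for DYRK2 (−16.7 points with stricter peaks and −16.7 with lists of equal length), CDKN2D (6.67, stricter peaks), PRKAR1A (−6.67), CSNK1D (−10.0) and MARK4 (−13.3), all 3 with lists of equal length. Without 1 animal it ran from −20 to 16.7 for CDK19 and from −20 to 8.33 for MAP2K7. The causes were not tested. No called kinase family region appeared under any alternative run. In the main run, most of the tested ones were in numbers of animals at which none could be called.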
